A study of Homo sapiens with 17 samples.

Results

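The genes described here build and pull apart the mitotic spindle: 50 listed genes of the kinetochore, spindle, condensin, chromosomal passenger complex, anaphase machinery and cleavage furrow, all 50 of them measured among 19775 singly named genes. They were taken from a list of names, and none was picked by its own values in a comparison. The list was, however, chosen with earlier results of these data known, so its direction of change is no independent evidence. On the arrays 94 of 54613 probe sets named 1 of these genes and no other, and each gene was read from the probe set with its highest mean over the 17 arrays. The arrays were Affymetrix chips hybridised with RNA of L363, an established human multiple myeloma line, kept for 48 h in 6 conditions. The treatments were 0.5 µM MS275 (n = 3), an inhibitor of class I histone deacetylases also called entinostat, 1 nM rapamycin (n = 3), 10 nM rapamycin (n = 3), MS275 with 1 nM rapamycin (the 1 nM combination, n = 3) and MS275 with 10 nM rapamycin (the 10 nM combination, n = 2, after 1 array was removed by the submitters at quality control). Rapamycin inhibits the mTOR kinase in its complex 1, and the control was untreated cells at 48 h (n = 3). All samples come from 1 cell line, and the labels do not say that replicates were separate cultures, so p-values measure the spread between these arrays, which may be technical.

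In dividing cells, cyclins and CDK1 drive entry into mitosis, condensin and topoisomerase II compact the chromosomes, and kinetochores assembled on CENP-A chromatin attach them to the microtubules of a spindle shaped by kinesins. The anaphase-promoting complex, a ubiquitin ligase started by CDC20, then removes cyclin B and securin so that separase can cut cohesin, and the central spindle and actin ring divide the cell. Many of the transcripts involved are made mainly in G2 and mitosis, so that in bulk RNA fewer cells in those phases and less RNA per cell cannot be told apart.

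Values are log2 signals. The median over all probe sets of an array lay between 5.09 and 5.36. On 2 arrays the values spanned a narrower range: the SD over probe sets was 2.15 on replicate 1 of the 1 nM combination and 2.14 on control replicate 1, against 2.27 to 2.37 on the other 15, and each of these 2 correlated best with the other (r = 0.966). Counts that rest on them are given with and without them below. As a check of the cell type, the plasma cell genes SDC1, IRF4, MZB1, XBP1, TNFRSF17, POU2AF1 and JCHAIN had median signals of 11.6 to 12.7, while myeloid LYZ was at 2.99, epithelial EPCAM at 2.66 and B cell MS4A1 at 4.23. The other listed plasma cell markers, PRDM1 and CD38, were lower, at 9.54 and 7.72. Not every marker of other cell types was low: B cell CD22 was at 7.04, fibroblast COL1A1 at 6.93 and epithelial CDH1 at 6.73. The T cell marker CD28 was at 8.56, but CD3D, CD3E and CD3G were at 5.07, 4.40 and 3.91.

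Promoters of such genes are known for a pair of short elements, the cell cycle genes homology region (CHR), bound by the MuvB core of the DREAM and B-MYB complexes, and CCAAT boxes, bound by NF-Y. RefSeq windows on GRCh38.p14, from 250 bases before to 50 after the annotated start, were found for 44 of the 50 genes, the other 6 being UBE2C, BIRC5, CDCA2, CENPM, TPX2 and TROAP. The CHR letters TTTGAA or TTCGAA, on either strand, stood in 35 of the 44 windows (79.55%), against 16.62% of the windows of 27305 genes and 13.33% of those of 15382 genes measured here. Within 60 bases of the start, 30 of the 44 (68.18%) held a CHR, against 5.46% of all windows and 3.91% of those of measured genes. The letters CCAAT, on either strand, stood in 35 of 44 (79.55%), against 35.7% of all windows, and 20 (45.45%) held 2 or more, against 11.32%. In 24 windows (54.55%, against 2.19% of all) a CHR near the start and a CCAAT box occurred together. E2F letters (TTTCCCGC, TTTGGCGC, TTTCGCGC or TTTGCCGC, either strand) stood in 3 windows (6.82%, against 3.33% of all). The first bases of the 45 CHR matches had a median position of -26, and those of the 74 CCAAT matches -69.5, relative to the start. In 2 windows a CHR and a CCAAT match shared a base.

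The stretch from 100 bases before to 20 after the start is printed for 8 of the genes given below on every array. Each is shown 5′ to 3′ on the gene's own strand with CHR, CCAAT and E2F matches in capitals. The first 6, with a CHR near the start, are MKI67 (chr10:128126404-128126523, minus strand), CDCA8 (chr1:37692416-37692535, plus strand), CDCA3 (chr12:6851267-6851386, minus strand), KIF4A (chrX:70290004-70290123, plus strand), PRC1 (chr15:90994516-90994635, minus strand) and CDCA5 (chr11:65084021-65084140, minus strand). The last pair, NCAPH (chr2:96335666-96335785, plus strand) and KIF2C (chr1:44739737-44739856, plus strand), has no match in this stretch.
MKI67: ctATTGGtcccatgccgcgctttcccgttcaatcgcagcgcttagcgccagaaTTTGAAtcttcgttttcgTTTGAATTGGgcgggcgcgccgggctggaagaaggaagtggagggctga
CDCA8: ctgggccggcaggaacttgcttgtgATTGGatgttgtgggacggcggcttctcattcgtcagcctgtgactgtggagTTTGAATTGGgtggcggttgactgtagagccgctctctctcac
CDCA3: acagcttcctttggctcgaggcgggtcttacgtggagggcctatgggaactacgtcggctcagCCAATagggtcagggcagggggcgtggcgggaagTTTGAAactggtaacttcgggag
KIF4A: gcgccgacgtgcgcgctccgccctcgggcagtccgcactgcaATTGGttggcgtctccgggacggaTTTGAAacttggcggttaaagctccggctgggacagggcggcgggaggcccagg
PRC1: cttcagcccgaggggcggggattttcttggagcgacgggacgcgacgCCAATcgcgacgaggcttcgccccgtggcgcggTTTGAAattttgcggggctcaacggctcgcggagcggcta
CDCA5: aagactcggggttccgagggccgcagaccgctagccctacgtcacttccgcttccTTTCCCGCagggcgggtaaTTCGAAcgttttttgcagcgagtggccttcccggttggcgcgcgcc
NCAPH: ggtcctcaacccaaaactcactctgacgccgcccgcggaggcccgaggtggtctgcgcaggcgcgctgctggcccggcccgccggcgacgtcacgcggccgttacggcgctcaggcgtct
KIF2C: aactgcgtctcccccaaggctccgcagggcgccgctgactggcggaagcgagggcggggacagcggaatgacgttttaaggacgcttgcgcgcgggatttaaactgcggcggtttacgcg
In MKI67 and CDCA8 the CHR runs into an inverted CCAAT box (TTTGAATTGG). In CDCA3, KIF4A and PRC1 an unconnected CCAAT box lies upstream of the CHR, and in CDCA5 an E2F match does. A match is only a string of letters. Of the 30 genes with a CHR near the start, 12 fell in at least 1 comparison with control, and of the 14 without one, 7 did, where 2.5% of all 19775 genes fell in at least 1.

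**Figure D1:**
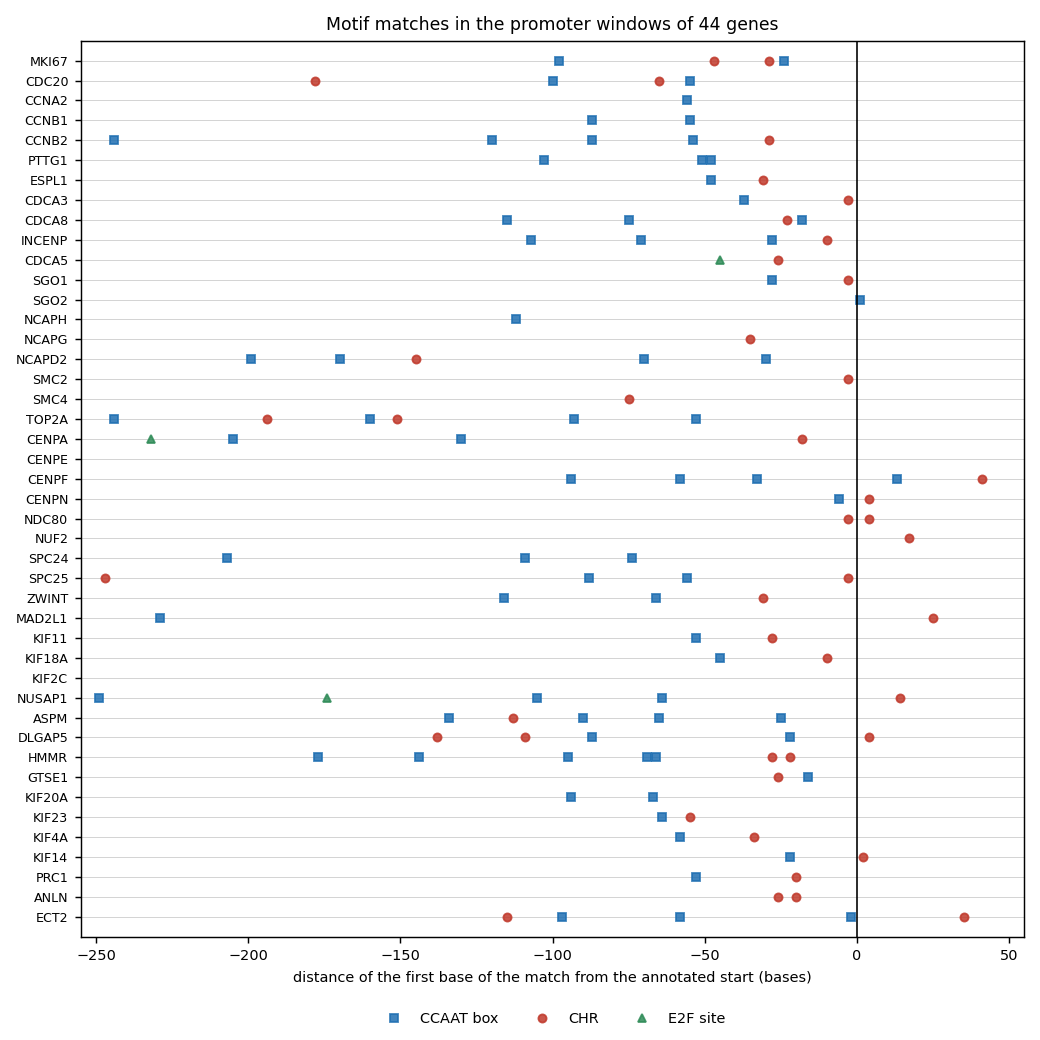
Positions of CCAAT boxes (blue squares), CHR letters (red circles) and E2F letters (green triangles) in the promoter windows of 44 genes, 1 line per gene; the horizontal axis is the distance in bases of the first base of the match from the annotated start (vertical line). The red circles gather near the start (median -26 bases), and the blue squares lie further upstream (median -69.5 bases).

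In each of the 5 treatments the median change of the 50 genes from control was below 0. The median over the 50 genes of each gene's signal less its own mean over 17 arrays was 0.08, 0.31 and 0.58 on the MS275 arrays, -0.10, 0.38 and 0.14 at 1 nM rapamycin and -0.55, 0.16 and -0.46 at 10 nM rapamycin. It was -0.80, -0.42 and -0.17 in the 1 nM combination and -0.79 and -0.70 in that with 10 nM, against 0.32, 1.25 and 1.27 in control cells. Control replicates 2 and 3 were the highest of the 17 arrays, and control replicate 1 lay among the MS275 and 1 nM rapamycin arrays. Neighbouring groups overlapped, and the pooled SD between replicate arrays was 0.35. On replicate 1 of 10 nM rapamycin, all 50 genes were below their own mean, on control replicates 2 and 3 only 1 and 2 genes were, and on control replicate 1 there were 22.

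**Figure D2:**
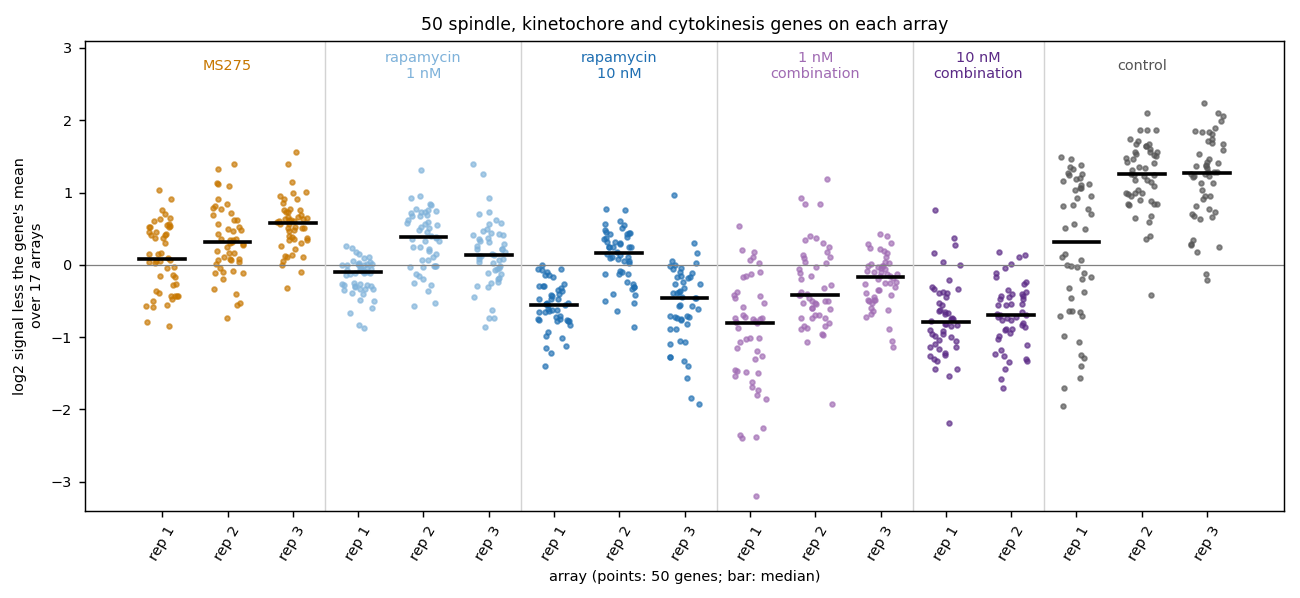
Each point is 1 of the 50 genes on 1 array; the vertical axis is its log2 signal less its mean over the 17 arrays, the horizontal axis lists the arrays by treatment with control on the right, and the black bar is the median of the 50 genes. The bars of control replicates 2 and 3 lie at 1.25 and 1.27 and that of control replicate 1 at 0.32, while the 10 nM combination bars lie at -0.79 and -0.70.

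Tested gene by gene (limma's moderated test on all 19775 genes, adjusted p under 0.05 by Benjamini-Hochberg), 0 members rose in any comparison, and in this unweighted fit the number that fell was largest in the combinations. MS275 alone lowered 3 of 50 (MKI67, NCAPH and CENPM), where 0.455% of all genes fell. Rapamycin lowered 2 at 1 nM (MKI67 and NCAPH), where 0.0809% of all genes fell, and 14 at 10 nM, where 0.369% did. The 1 nM combination lowered 19, where 1.58% of all genes fell, and the 10 nM combination 23, where 2.24% did. Of all genes 1.04%, 0.0202%, 0.0657%, 1.12% and 1.06% rose in these 5 comparisons. At an unadjusted p under 0.05 by the same limma test, 0 members were higher in any of them, where 5.86%, 2.95%, 2.53%, 5.95% and 5.76% of all genes were. Lower at that p were 16, 22, 29, 34 and 32 members, where 4.91%, 5.1%, 4.43%, 6.67% and 8.42% of all genes were.

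The median log2 change of the 50 genes was -0.53 with MS275, -0.83 with 1 nM and -1.22 with 10 nM rapamycin, -1.41 in the 1 nM combination and -1.43 in that with 10 nM. Over all genes the medians lay between -0.12 and 0.02. The fitted change was below 0 for 46 genes with MS275, 46 with 1 nM rapamycin and all 50 in each of the other 3 treatments. Every treated array lay below every control array in 14 genes with MS275 (5.34% of all genes), 21 with 1 nM rapamycin (8.03%) and 25 with 10 nM rapamycin (4.93%). The same held for 25 genes in the 1 nM combination (5.61%) and 33 in that with 10 nM (13%). Within the same replicate number, the median difference from control was -0.32, -0.93 and -0.72 with MS275 and -0.69, -0.90 and -1.10 with 1 nM rapamycin. It was -0.81, -1.15 and -1.86 with 10 nM rapamycin, -1.36, -1.51 and -1.51 in the 1 nM combination and -1.18 and -1.94 in that with 10 nM, so that every one of these differences was below 0. The numbering of the 10 nM combination is uncertain: over all probe sets its replicates 1 and 2 correlated best with replicates 2 and 3 of the 1 nM combination, and its differences by number and its blocked values rest on the numbers as labelled.

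**Figure D3:**
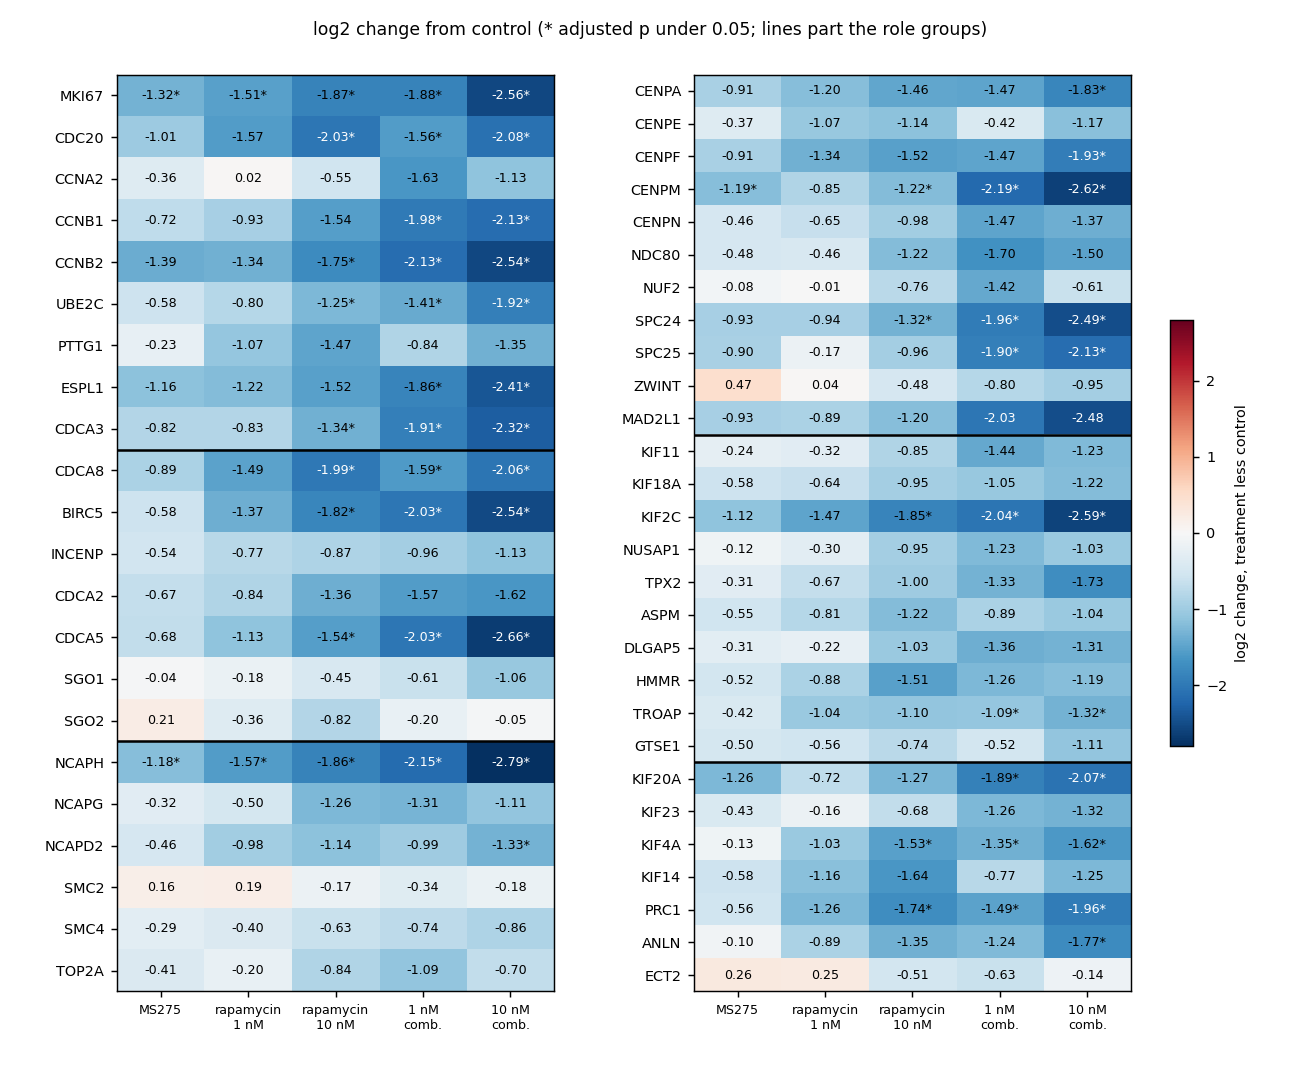
Colours and printed numbers give the log2 change, treatment less control, of each of the 50 genes (lines) under the 5 treatments (columns); heavy lines part the role groups and a star marks an adjusted p under 0.05. Nearly all cells are blue (lower in treated cells), the deepest in the combination columns, and MKI67 and NCAPH have a star in all 5 columns.

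These counts depend on single arrays. Without the 2 narrow arrays the members that fell numbered 10 with MS275 (1.23% of all genes), 5 with 1 nM rapamycin (0.197%), 22 with 10 nM rapamycin (0.657%), 24 in the 1 nM combination (1.96%) and 33 in that with 10 nM (3.18%). The medians became -0.94, -1.15, -1.61, -1.44 and -1.96 in the same order. With weights for the quality of each array, 15 fell with MS275 (3.7% of all genes), 37 with 1 nM rapamycin (9.52%), 38 with 10 nM rapamycin (6.84%), 29 in the 1 nM combination (4.08%) and 35 in that with 10 nM (5.3%), so that 10 nM rapamycin then had the most. With the replicate number as a block, 7 fell with MS275 (1.26% of all genes), 8 with 1 nM rapamycin (0.455%), 23 with 10 nM rapamycin (0.92%), 30 in the 1 nM combination (2.98%) and 27 in that with 10 nM (3.76%). Under the block 9 of the 27 genes that passed in none of the 5 comparisons with all arrays, no block and no weights passed in at least 1. Of all genes 2.26% passed with the block only. When each comparison was fitted on its own groups alone, 0 members passed in any of the 5, and 0% of all genes fell (limma; 0.0455% of all genes rose with MS275 and 0% in the other 4). In these small fits, at an unadjusted p under 0.05, 13, 22, 28, 28 and 31 members were lower, where 3.12%, 3.3%, 2.77%, 4.1% and 4.73% of all genes were, and 0 were higher. Single arrays were also left out in turn, and the share of all genes that then fell is not given. The MS275 count was 1 without MS275 replicate 2 or 3 and 5 without control replicate 1 or replicate 2 of 10 nM rapamycin. The count for 1 nM rapamycin was 0 without its replicate 1 or 3, 1 without its replicate 2, control replicate 3 or either 10 nM combination array, and 4 without control replicate 2 or replicate 2 of 10 nM rapamycin. The count for 10 nM rapamycin was 1, 2, 4 and 6 without its replicate 1, control replicate 3, its replicate 3 and control replicate 2, and 9 without MS275 replicate 3, replicate 1 or 3 of 1 nM rapamycin, or replicate 2 of the 1 nM combination. The 1 nM combination count was 29 without control replicate 1, and the 10 nM combination count was 12 and 13 without its replicates 1 and 2.

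With 10 nM rapamycin and in both combinations, the role group of MKI67, cyclins and anaphase machinery held the most members that fell. Role groups differed in size. The counts of every role group stand beside the shares of all genes that fell. These were 0.455% with MS275, 0.0809% with 1 nM and 0.369% with 10 nM rapamycin. In the 1 nM and 10 nM combinations they were 1.58% and 2.24%. Of the 9 genes in the group of MKI67, 1 fell with MS275 and 1 with 1 nM rapamycin, MKI67 in both. With 10 nM rapamycin 5 fell, and 7 in each combination. With MS275 and with 1 nM rapamycin, the condensin group held as many, 1. The 12 genes followed on every array were, in each role group, the pair with the smallest p of limma's F over the 5 contrasts with control. Their calls rest on the values that picked them and are no independent evidence. MKI67 encodes Ki-67, the protein that coats mitotic chromosomes and serves as the common marker of proliferating cells. MKI67 measured 7.27, 7.49 and 7.36 in MS275 cells, 7.24, 7.34 and 6.98 at 1 nM rapamycin and 6.52, 7.29 and 6.68 at 10 nM rapamycin. In the combinations its signal was 7.08, 6.63 and 6.74 with 1 nM and 6.28 and 5.99 with 10 nM rapamycin, against 8.72, 8.77 and 8.60 in control cells. All treated arrays were below all control arrays, and the 10 nM combination arrays were the lowest of the 17. The log2 change was -1.32 ± 0.20 (SE) with MS275 (adjusted p = 0.00493), -1.51 and -1.87 with 1 and 10 nM rapamycin (0.0137 and 0.00227), -1.88 in the 1 nM combination (0.000325) and -2.56 ± 0.23 in that with 10 nM (7.46e-05), where the level was 5.89-fold lower than in control. MKI67 passed in 4 of the 5 comparisons whichever array was left out, and lost its call for 1 nM rapamycin without replicate 1 or 3 of that group (adjusted p up to 0.115).

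CDCA3 is a mitotic entry factor and itself a target of the anaphase-promoting complex. CDCA3 measured 9.14, 8.67 and 8.95 in MS275 cells, 8.63, 9.09 and 9.03 at 1 nM rapamycin and 7.95, 8.72 and 8.56 at 10 nM rapamycin. The combination signals were 7.59, 7.72 and 8.19 with 1 nM and 7.36 and 7.50 with 10 nM rapamycin, against 9.53, 9.87 and 9.84 in control cells. Both combinations lay below every array of control, MS275 and 1 nM rapamycin. It fell by 1.34 on the log2 scale at 10 nM rapamycin (adjusted p = 0.0247), by 1.91 in the 1 nM combination (0.000597) and by 2.32 in that with 10 nM (0.000274). The call at 10 nM rapamycin was lost without control replicate 2 or 3 or replicate 1 or 3 of that group (adjusted p up to 0.159). With MS275 it passed under the replicate block (0.0431).

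CDC20, which starts the anaphase-promoting complex, UBE2C, its ubiquitin-conjugating enzyme, and CCNB2, a cyclin partner of CDK1, fell at 10 nM rapamycin and in both combinations, by 2.08, 1.92 and 2.54 (log2) in the 10 nM combination. UBE2C and CCNB2 lost their calls at 10 nM rapamycin when the 2 narrow arrays were left out. Cyclin B1 (CCNB1) and separase (ESPL1), the protease that opens cohesin, fell in both combinations, by 2.13 and 2.41 in the 10 nM one. The other pair did not pass in any comparison with control with all arrays and no block or weights. CCNA2, the cyclin of S and G2 phase, had a change of -1.13 ± 0.83 in the 10 nM combination (adjusted p = 0.619), and securin (PTTG1), the inhibitor of separase, one of -1.35 ± 0.36 (0.0593). Under the replicate block (limma), CCNB2 also passed with MS275 and with 1 nM rapamycin (adjusted p = 0.00635 and 0.0269), CDC20 with 1 nM rapamycin (0.0269), and CCNB1, ESPL1 and PTTG1 with 10 nM rapamycin. Without the 2 narrow arrays and without a block, CCNB1 also passed with MS275 and at both doses of rapamycin.

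Among 7 genes of the chromosomal passenger complex, chromatin regulators and cohesion, CDCA8, BIRC5 and CDCA5 fell at 10 nM rapamycin and in both combinations. With all arrays and no block or weights, 0 fell with MS275 or 1 nM rapamycin, though CDCA5 fell with each without the 2 narrow arrays. At an unadjusted p under 0.05 by limma, 2 of the 7 were lower with MS275 and 3 with 1 nM rapamycin. Of all genes 4.91% and 5.1% were. CDCA8, or borealin, is a scaffold that holds the passenger complex of Aurora B at centromeres. CDCA8 read 9.07, 8.62 and 9.17 in MS275 cells, 8.26, 8.27 and 8.54 at 1 nM rapamycin and 7.33, 8.05 and 8.17 at 10 nM rapamycin. The combinations gave 8.10, 8.14 and 8.53 with 1 nM and 7.45 and 8.12 with 10 nM rapamycin, against 9.71, 9.39 and 10.44 in control cells. Each treated array lay below each control array, and replicate 1 of 10 nM rapamycin was the lowest. The log2 change was -1.99 ± 0.29 at 10 nM rapamycin (adjusted p = 0.013), -1.59 ± 0.29 in the 1 nM combination (0.00803) and -2.06 ± 0.33 in that with 10 nM (0.00305). The last call was lost without replicate 1 of the 10 nM combination (0.0597), and the one at 10 nM rapamycin without control replicate 3 or replicate 1 of its own group (up to 0.0876). Blocked by replicate number, CDCA8 also passed at 1 nM rapamycin (0.0183), as did BIRC5 (0.0401).

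CDCA5, or sororin, keeps cohesin closed around sister chromatids until anaphase. CDCA5 measured 8.75, 8.36 and 8.79 in MS275 cells, 8.02, 8.38 and 8.18 at 1 nM rapamycin and 7.53, 8.13 and 7.67 at 10 nM rapamycin. Its combination values were 7.18, 7.32 and 7.37 with 1 nM and 6.61 and 6.71 with 10 nM rapamycin, against 8.62, 9.47 and 9.87 in control cells. The 10 nM combination arrays were the lowest, the 1 nM combination arrays came next without overlap, and control replicate 1 lay inside the MS275 range. It fell by 1.54 at 10 nM rapamycin (adjusted p = 0.0247), 2.03 in the 1 nM combination (0.000911) and 2.66 in that with 10 nM (0.000274), that is 6.32-fold. Survivin (BIRC5), the subunit that targets the complex to centromeres, fell by 2.54 in the 10 nM combination. INCENP, which activates Aurora B, CDCA2, which brings phosphatase to anaphase chromatin, and the shugoshins SGO1 and SGO2, guardians of centromeric cohesion, passed in no comparison with control with all arrays and no block or weights. Their changes in the 10 nM combination were -1.13, -1.62, -1.06 and -0.05. With the block CDCA2 passed at 10 nM rapamycin and in both combinations (limma, adjusted p = 0.0415, 0.00661 and 0.0138). Without the 2 narrow arrays and without a block, CDCA2 and SGO1 passed with MS275, at 10 nM rapamycin and in both combinations. CDCA5 then also passed with MS275 and with 1 nM rapamycin.

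**Figure D4:**
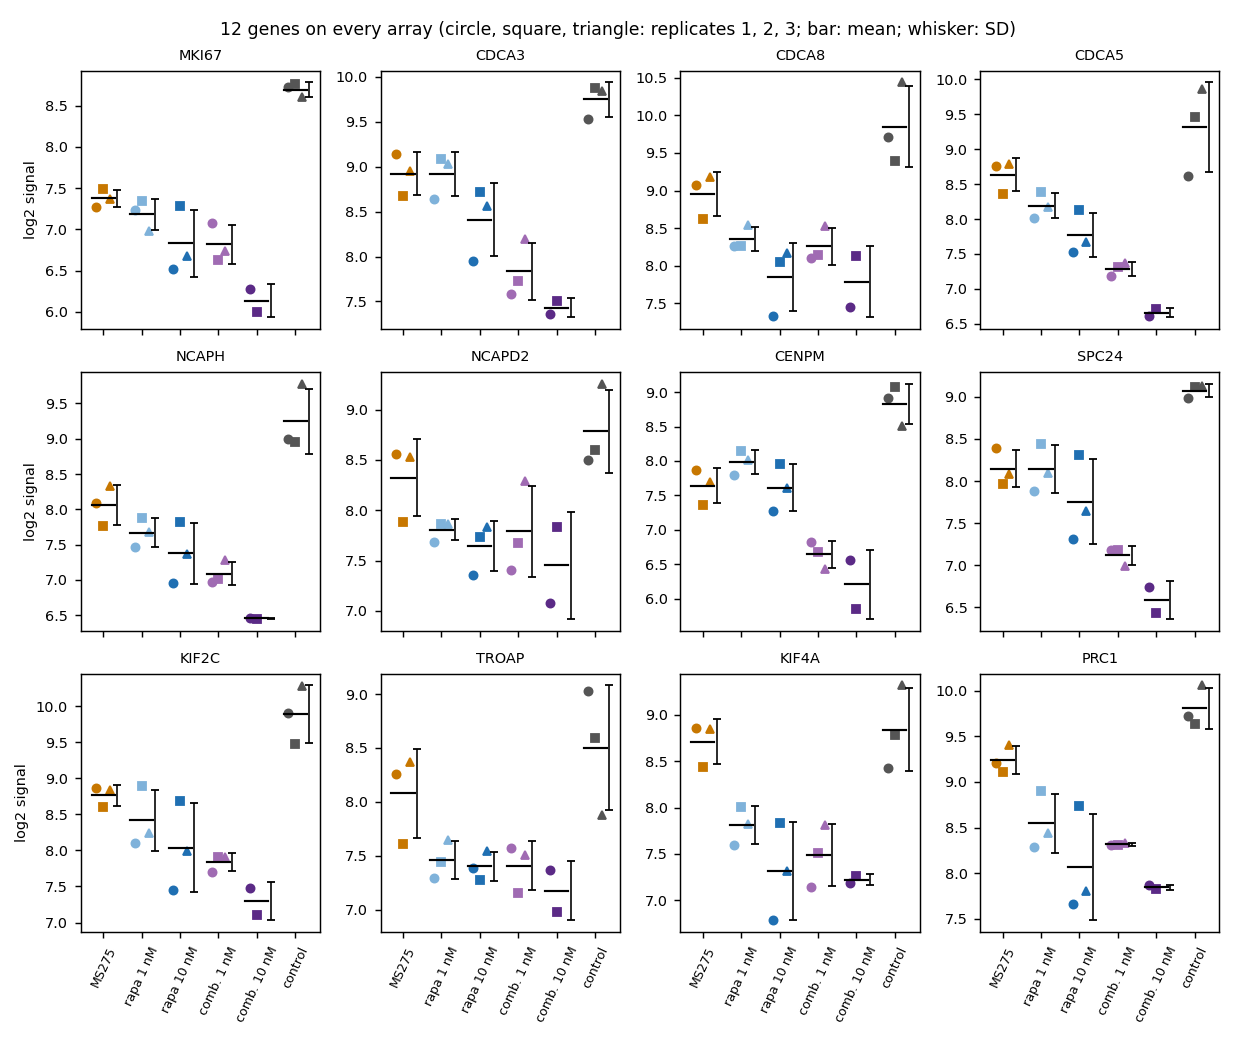
Log2 signal (vertical axis) of 12 genes on every array, 1 panel per gene with its own scale, by treatment with control on the right; circles, squares and triangles are replicates 1, 2 and 3, bars are means and whiskers the SD. The genes were picked by limma's F over the contrasts with control. In MKI67, CDCA3, CENPM and SPC24 the control arrays stand above all treated arrays, and in NCAPH and CDCA5 the 10 nM combination arrays are the lowest.

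Of the 6 genes of condensin and chromosome compaction, at most 2 fell in a comparison with control. NCAPH, the kleisin that closes the condensin I ring, fell in all 5 treatments, while the SMC2 and SMC4 ATPases, shared by condensin I and II, passed in none (the difference between subunits was not tested). NCAPH measured 8.09, 7.77 and 8.33 in MS275 cells, 7.46, 7.88 and 7.68 at 1 nM rapamycin and 6.96, 7.82 and 7.36 at 10 nM rapamycin. Combined drugs gave 6.98, 7.02 and 7.28 with 1 nM and 6.46 and 6.45 with 10 nM rapamycin, against 9.00, 8.96 and 9.78 in control cells. Control arrays were above all treated arrays, and the 10 nM combination arrays were the lowest. NCAPH changed by -1.18 ± 0.25 with MS275 (adjusted p = 0.031), -1.57 and -1.86 with 1 and 10 nM rapamycin (0.0284 and 0.0123), -2.15 in the 1 nM combination (0.000544) and -2.79 ± 0.28 in that with 10 nM (0.000177), the largest fall of the 50 genes there (6.89-fold). The combination calls held without any array, the MS275 call was lost without control replicate 3 or any MS275 array (adjusted p up to 0.121), the 10 nM rapamycin call without its replicate 1 (0.0791), and the 1 nM rapamycin call without any of 7 arrays (up to 0.186).

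NCAPD2, another condensin I subunit, passed the threshold in the 10 nM combination and, without a block or weights, in no other comparison with control. NCAPD2 measured 8.56, 7.89 and 8.52 in MS275 cells, 7.69, 7.87 and 7.87 at 1 nM rapamycin and 7.36, 7.74 and 7.83 at 10 nM rapamycin. In the combinations it read 7.41, 7.68 and 8.29 with 1 nM and 7.08 and 7.83 with 10 nM rapamycin, against 8.50, 8.59 and 9.26 in control cells. Replicate 2 of the 10 nM combination was level with the rapamycin arrays, and the MS275 group overlapped control. The change in the 10 nM combination was -1.33 ± 0.32 (adjusted p = 0.0344), lost without control replicate 3, any array of 1 nM rapamycin or either array of its own group (up to 0.328). The replicate block added calls at 10 nM rapamycin (0.0325) and in the 1 nM combination (0.0247). In the 10 nM combination, SMC2, SMC4, NCAPG of condensin I and topoisomerase IIα (TOP2A), which untangles sister DNA, changed by -0.18, -0.86, -1.11 and -0.70. None passed the threshold with all arrays and no block or weights.

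Of 11 kinetochore and centromere genes, 1 fell with MS275, 0 with 1 nM and 2 with 10 nM rapamycin, 3 in the 1 nM combination and 5 in that with 10 nM. At an unadjusted p under 0.05 by limma, 5 of the 11 were lower with 1 nM rapamycin, where 5.1% of all genes were. CENPM belongs to the inner kinetochore network that sits on CENP-A nucleosomes. CENPM had signals of 7.86, 7.37 and 7.69 in MS275 cells, 7.80, 8.14 and 8.01 at 1 nM rapamycin and 7.27, 7.95 and 7.61 at 10 nM rapamycin. Its signals in the combinations were 6.82, 6.68 and 6.43 with 1 nM and 6.56 and 5.85 with 10 nM rapamycin, against 8.91, 9.07 and 8.51 in control cells. The control arrays stood above all others, and the combination arrays below all single-drug arrays. CENPM changed by -1.19 ± 0.24 with MS275 (adjusted p = 0.0216), -1.22 ± 0.24 at 10 nM rapamycin (0.0385), -2.19 ± 0.24 in the 1 nM combination (0.000325) and -2.62 ± 0.26 in that with 10 nM (0.000177). At 1 nM rapamycin the change was -0.85 (0.238). The combination calls held without any array, whereas the 10 nM rapamycin call was lost without any of 12 arrays (up to 0.278) and the MS275 call without control replicate 2 or MS275 replicate 2 or 3 (up to 0.0891). Leaving out the 2 narrow arrays together also ended the 10 nM rapamycin call.

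SPC24 is part of the NDC80 complex, the kinetochore's grip on microtubules. SPC24 measured 8.39, 7.96 and 8.09 in MS275 cells, 7.88, 8.44 and 8.10 at 1 nM rapamycin and 7.31, 8.31 and 7.64 at 10 nM rapamycin. The combined drugs gave 7.18, 7.17 and 6.99 with 1 nM and 6.74 and 6.43 with 10 nM rapamycin, against 8.99, 9.11 and 9.13 in control cells. Again all treated arrays were below all control arrays, and both combinations below all MS275 and rapamycin arrays. It fell by 1.32 at 10 nM rapamycin (adjusted p = 0.0269), 1.96 in the 1 nM combination (0.000544) and 2.49 in that with 10 nM (0.000177). The call at 10 nM rapamycin was lost without control replicate 2 or 3 or replicate 1 or 3 of its own group (up to 0.182). Its partner SPC25 fell in both combinations, by 2.13 in the 10 nM one. The other arm of the complex, NDC80 and NUF2, changed by -1.50 and -0.61 there and passed in no comparison with control with all arrays and no block or weights. The centromeric histone CENPA and the kinetochore protein CENPF fell in the 10 nM combination, by 1.83 and 1.93. CENPE, a kinetochore motor, CENPN, a reader of CENP-A, ZWINT, an outer kinetochore linker, and the checkpoint protein MAD2L1 also passed in none. MAD2L1 had a large but uneven change of -2.48 ± 0.86 in the 10 nM combination (adjusted p = 0.162). Chosen after its values were seen, it read 5.18 and 6.98 there, against 8.32, 7.73 and 9.62 in control cells, and its SD was between 0.92 and 1.27 in the 6 groups. Under the replicate block (limma), MAD2L1 passed in the 1 nM and 10 nM combinations (adjusted p = 0.0093 and 0.0226), and CENPN and NDC80 in the 1 nM combination (0.0212 and 0.0447). CENPA and CENPF then also passed at 10 nM rapamycin and in the 1 nM combination, and SPC24 with MS275 (0.0456). Without the 2 narrow arrays and without a block, NDC80 and ZWINT passed in the 10 nM combination and SPC25 passed with MS275. CENPA and CENPF no longer passed in the 10 nM combination.

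Among 10 spindle motors and assembly factors, 1 fell with 10 nM rapamycin and 2 in each combination, and 0 with MS275 or 1 nM rapamycin. At an unadjusted p under 0.05 by limma, 1 was lower with MS275 and 2 with 1 nM rapamycin. Of all genes 4.91% and 5.1% were. KIF2C, or MCAK, is a kinesin that takes microtubule ends apart and corrects wrong attachments. KIF2C measured 8.87, 8.60 and 8.83 in MS275 cells, 8.11, 8.90 and 8.24 at 1 nM rapamycin and 7.45, 8.69 and 7.99 at 10 nM rapamycin. With both drugs it read 7.70, 7.91 and 7.91 with 1 nM and 7.48 and 7.11 with 10 nM rapamycin, against 9.91, 9.47 and 10.28 in control cells. All treated arrays were below all control arrays, with wide spread in the rapamycin groups. It fell by 1.85 at 10 nM rapamycin (adjusted p = 0.0174), 2.04 in the 1 nM combination (0.00177) and 2.59 in that with 10 nM (0.000647). The call at 10 nM rapamycin was lost without control replicate 3 or replicate 1 or 3 of its own group (up to 0.102). With the replicate block KIF2C also passed at 1 nM rapamycin (0.0480).

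TROAP, a microtubule-associated protein needed for spindle integrity, fell in both combinations. TROAP measured 8.26, 7.61 and 8.37 in MS275 cells, 7.30, 7.44 and 7.65 at 1 nM rapamycin and 7.39, 7.28 and 7.54 at 10 nM rapamycin. With both drugs the signal was 7.57, 7.15 and 7.50 with 1 nM and 7.37 and 6.98 with 10 nM rapamycin, against 9.03, 8.59 and 7.88 in control cells. The lowest control array lay inside the MS275 range and above every rapamycin and combination array. It fell by 1.09 in the 1 nM combination (adjusted p = 0.0459) and 1.32 in that with 10 nM (0.0269). Neither call was kept when the 2 narrow arrays were left out, and the 1 nM combination call passed with only 2 of the 17 arrays left out in turn (up to 0.162), the other with 13 (up to 0.247).

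With all arrays and no replicate block or weights, the remaining 8 did not pass against control. KIF11, the motor that pushes spindle poles apart, KIF18A, which dampens chromosome oscillation, NUSAP1, which bundles microtubules, and TPX2, the activator of Aurora A, changed by -1.23, -1.22, -1.03 and -1.73 in the 10 nM combination. ASPM, a spindle pole protein, DLGAP5, which stabilises kinetochore fibres, HMMR, a spindle-associated hyaluronan receptor, and GTSE1, a microtubule-bound regulator of p53, changed by -1.04, -1.31, -1.19 and -1.11. TPX2 came closest to the threshold (adjusted p = 0.0513). Without the 2 narrow arrays, KIF11, KIF18A, NUSAP1, TPX2, DLGAP5 and HMMR passed at 10 nM rapamycin and in the 10 nM combination. TPX2, KIF11 and DLGAP5 then also passed in the 1 nM combination, and TPX2 with MS275 and with 1 nM rapamycin. Blocked by replicate number, 4 of the 8 passed by limma: TPX2 in the 1 nM and 10 nM combinations (adjusted p = 0.0368 and 0.0266), NUSAP1 in the 1 nM combination (0.0408), HMMR with 10 nM rapamycin and in the 1 nM combination (0.0342 and 0.0329) and GTSE1 in that with 10 nM (0.0373).

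Of 7 genes of the central spindle and cytokinesis, 2 fell with 10 nM rapamycin, 3 in the 1 nM combination and 4 in that with 10 nM, and 0 with MS275 or 1 nM rapamycin. At an unadjusted p under 0.05 by limma, 2 were lower with MS275 and 3 with 1 nM rapamycin. Of all genes 4.91% and 5.1% were. PRC1 cross-links the antiparallel microtubules of the central spindle. PRC1 measured 9.20, 9.11 and 9.41 in MS275 cells, 8.29, 8.91 and 8.44 at 1 nM rapamycin and 7.67, 8.74 and 7.80 at 10 nM rapamycin. Both drugs together gave 8.31, 8.31 and 8.33 with 1 nM and 7.87 and 7.83 with 10 nM rapamycin, against 9.72, 9.64 and 10.06 in control cells. Treated arrays were below control arrays in every group. It fell by 1.74 at 10 nM rapamycin (adjusted p = 0.013), 1.49 in the 1 nM combination (0.00409) and 1.96 in that with 10 nM (0.00133). The call at 10 nM rapamycin was lost without control replicate 3 or replicate 1 or 3 of its own group (up to 0.0876). With the replicate block PRC1 also passed at 1 nM rapamycin (0.0415).

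KIF4A, the kinesin that PRC1 recruits to the midzone, fell in the same 3 comparisons with control. KIF4A read 8.85, 8.43 and 8.85 in MS275 cells, 7.60, 8.01 and 7.83 at 1 nM rapamycin and 6.78, 7.84 and 7.32 at 10 nM rapamycin. The combination arrays read 7.14, 7.52 and 7.81 with 1 nM and 7.18 and 7.26 with 10 nM rapamycin, against 8.43, 8.78 and 9.32 in control cells. The MS275 arrays overlapped control, and the rapamycin and combination arrays lay below both. The change was -0.13 ± 0.28 with MS275 (adjusted p = 0.929, 95% interval -0.73 to 0.47), -1.53 ± 0.28 at 10 nM rapamycin (0.0341), -1.35 ± 0.28 in the 1 nM combination (0.016) and -1.62 ± 0.31 in that with 10 nM (0.0104). These calls were lost without any of 10 arrays for 10 nM rapamycin (up to 0.207), without control replicate 3 or replicate 1 or 2 of the 1 nM combination (up to 0.0783) and without either array of the 10 nM combination (up to 0.0875). KIF20A, which carries the passenger complex to the midzone, fell in both combinations, by 2.07 in the 10 nM one. Anillin (ANLN), the scaffold of the contractile ring, fell in the 10 nM combination by 1.77. KIF23 of centralspindlin, KIF14, a midzone kinesin, and ECT2, the activator of RhoA at the furrow, changed by -1.32, -1.25 and -0.14 there. With all arrays and no weights they passed in no comparison with control, blocked or not. Without the 2 narrow arrays KIF23 passed in the 10 nM combination, KIF20A also with MS275 and at 10 nM rapamycin, and ANLN also at 10 nM rapamycin. The block added calls for KIF20A with MS275 (limma, adjusted p = 0.0303) and for ANLN at 10 nM rapamycin and in the 1 nM combination (0.0486 and 0.0275).

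Next, each combination was set against its single drugs, and 0 members rose in these 4 comparisons (limma, where 0.00506% of all genes rose against MS275 at either dose, 0.936% against 1 nM and 0.298% against 10 nM rapamycin). Adding 10 nM rapamycin to MS275 lowered 6 of 50 genes relative to MS275 alone, where 0.248% of all genes fell: CDCA5 by 1.98 on the log2 scale (adjusted p = 0.0108), NCAPH by 1.60, SPC24 by 1.56, CDCA3 by 1.49, CENPM by 1.43 and MKI67 by 1.24 (0.0363). In all 6 both combination arrays were below all MS275 arrays, as they were in 32 of 50 genes (11.8% of all genes). With 1 nM rapamycin added, 0 of 50 passed against MS275 (limma, where 0.101% of all genes fell), although 20 were lower at an unadjusted p under 0.05 (2.81% of all genes) and all 50 fitted changes were below 0. In 20 genes the groups did not overlap (3.48% of all genes). CDCA5 came closest (-1.35 ± 0.26, adjusted p = 0.0975). The median change of the 50 genes was -1.02 for the 10 nM and -0.86 for the 1 nM combination against MS275, with medians of -0.04 and 0.04 over all genes.

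Adding MS275 to rapamycin lowered 3 genes at 1 nM and 1 at 10 nM. The 1 nM combination lay below 1 nM rapamycin in CDCA3 (-1.08 ± 0.23, adjusted p = 0.0326), CENPM (-1.34 ± 0.24, 0.0116) and SPC24 (-1.02 ± 0.23, 0.0458), 3 of 50 genes where 0.293% of all genes fell. The 10 nM combination lay below 10 nM rapamycin in CENPM alone (-1.40 ± 0.26, 0.0335), where 0.137% of all genes fell. The medians of the 50 genes were -0.62 and -0.37. In these comparisons the groups did not overlap in 18 genes (6.8% of all genes) and 12 genes (11.1%). In PRC1 and CDCA8, MS275 added to 10 nM rapamycin gave differences of -0.22 (95% interval -0.81 to 0.37) and -0.06 (-0.76 to 0.64).

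These comparisons also rest on few arrays. Without the 2 narrow arrays the counts were 12 for the 10 nM combination against MS275 (0.521% of all genes), 0 for the 1 nM combination against MS275 (0.0607%), 1 (CENPM) against 1 nM rapamycin (0.399%) and 2 against 10 nM rapamycin (0.506%). With the replicate number as a block 2 genes, BIRC5 and CDCA5, passed for the 1 nM combination against MS275 (0.207% of all genes), 5 against 1 nM rapamycin (0.885%), and 2 for the 10 nM combination against 10 nM rapamycin (0.561%). Array weights left 2 for the 10 nM combination against MS275 (0.303% of all genes) and 1 for the 1 nM combination against 1 nM rapamycin (1.27%). With single arrays left out, the share of all genes that fell is not given. For the 10 nM combination against MS275 the count was 0 without MS275 replicate 1 or either 10 nM combination array, 1 without MS275 replicate 3, 3 without replicate 3 of 1 nM or of 10 nM rapamycin, and 10 without control replicate 1. Against 1 nM rapamycin it was 0 without replicate 2 or 3 of 1 nM rapamycin, 1 without its replicate 1 or any 1 nM combination array, and 5 without control replicate 1. Against 10 nM rapamycin it was 0 without replicate 1 or 3 of 1 nM rapamycin, replicate 2 or 3 of 10 nM rapamycin or either 10 nM combination array, and 2 without control replicate 1 or replicate 1 of 10 nM rapamycin. For the 1 nM combination against MS275 it was 1 without control replicate 1 or 3.

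The dose of rapamycin was compared with and without MS275. At 10 nM the 50 genes had a median change of -0.45 from 1 nM, against 0.03 over all genes, and all 50 fitted changes were below 0, but 0 members passed (limma, 0% of all genes, and 1 member, CDCA3, lower at an unadjusted p under 0.05, where 0.0405% of all genes were). In the combinations the median was -0.30 for 10 nM against 1 nM, with 37 of 50 below 0, and again 0 passed (0% of all genes, and 2 members, MKI67 and NCAPH, lower at an unadjusted p under 0.05, where 0.627% of all genes were). MKI67 differed by -0.68 ± 0.23 between the combinations (95% interval -1.16 to -0.20, adjusted p = 0.995). The combination effect less the sum of both single-drug effects had a median of -0.07 at 1 nM and 0.20 at 10 nM over the 50 genes, and 0 passed at either dose (limma, 0% of all genes). At an unadjusted p under 0.05, 2 and 1 members were above 0, where 2.78% and 0.319% of all genes were, and 0 below, where 1.85% and 0.662% were. MKI67 was 1 of the 2 members at 1 nM, a count near the share of all genes. Its value was 0.95 ± 0.28 (95% interval 0.34 to 1.56, limma adjusted p = 0.682) and did not pass. A value above 0 would mean a combination effect smaller than the sum. With groups of 3, the 95% interval of a member's change from control or between rapamycin doses reached a median of 0.86 (log2) to either side. Between the combinations this median was 0.97, and for the combination effect less the sum it was 1.22 at 1 nM and 1.30 at 10 nM. These widths are before adjustment, so passing mostly needed larger differences still, and smaller ones were mostly not detectable.

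Control replicate 1 carried low values for many of the genes. Against the mean of control replicates 2 and 3, this array was lower by over 1 log2 unit in 24 of 50 genes. The median difference was -1.47 in the 27 genes that passed in no comparison with control and -0.21 in the other 23. This array enters the control mean and the error behind those calls, so that the split is in part fixed by construction and is no test. The difference ran from -3.55 in DLGAP5 to 0.88 in PTTG1. DLGAP5 is given on every array as the extreme, chosen after its values were seen. DLGAP5 measured 7.22, 8.50 and 8.80 in MS275 cells, 7.73, 8.50 and 8.54 at 1 nM rapamycin and 7.19, 8.09 and 7.06 at 10 nM rapamycin. Under both drugs it read 5.95, 7.70 and 7.71 with 1 nM and 7.07 and 7.26 with 10 nM rapamycin, against 6.11, 9.67 and 9.66 in control cells. Replicate 1 was the lowest of its group in control and in the 1 nM combination, and control replicates 2 and 3 were the highest of the 17 arrays. With all arrays DLGAP5 changed by -1.31 ± 0.88 in the 10 nM combination (adjusted p = 0.573), and without the 2 narrow arrays it fell by 2.50 (0.0103). CCNA2, TOP2A and TPX2, not past the threshold there with all arrays and no block, likewise passed without these 2 arrays, with falls of 2.20 (0.0120), 1.45 (0.0448) and 2.35 (0.000320).

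**Figure D5:**
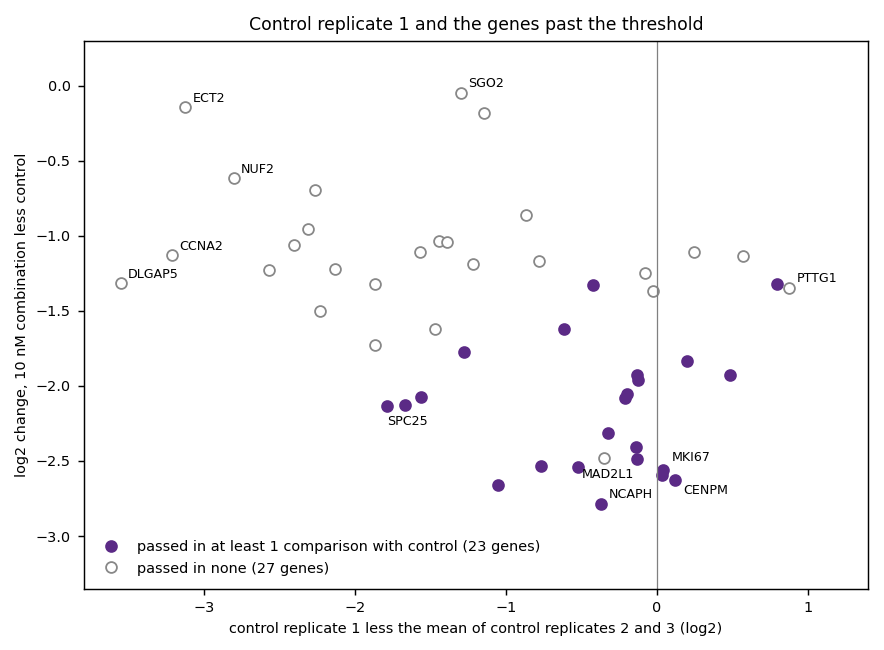
Each point is 1 of the 50 genes; the horizontal axis is its log2 signal on control replicate 1 less the mean of control replicates 2 and 3, and the vertical axis its log2 change in the 10 nM combination less control. Filled points are the 23 genes that passed in at least 1 comparison with control (median -0.21 on the horizontal axis), open circles the 27 that passed in none (median -1.47); control replicate 1 enters both axes and the calls, so their relation is in part fixed by construction.

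Across the 50 genes, the difference of replicate 1 of the 1 nM combination from its group and that of control replicate 1 from its group correlated with r = 0.77, given as a description of 2 arrays. Probe sets of the same gene also spread more on these arrays. For the 24 genes read by several probe sets of a mean signal at or above the median of all probe sets (58 in all), the median range between them, each taken less its own mean over the arrays, was 0.78 log2 units on replicate 1 of the 1 nM combination and 0.74 on control replicate 1, and 0.19 to 0.58 on the others. What set these arrays apart was not tested.

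The other probe sets of the members mostly changed in the same direction. There were 44 of them, for 28 genes, and their log2 changes were below 0 in 38 with MS275, 38 with 1 nM rapamycin and 42 in each of the other 3 treatments. Past the threshold fell 3, 0, 5, 11 and 16 of them, in a separate limma fit over the 41091 probe sets with 1 gene symbol. The share of all these probe sets that fell is not given, so these counts have no background beside them. The sign was opposite to that of the gene's chosen probe set in 6, 8, 2, 2 and 2. The chosen probe sets of INCENP, SGO1, SPC25, KIF18A and KIF23 had mean signals under the median of all genes (6.07). Over the 17 arrays the correlation between pairs of members had a median r of 0.63 and ran from -0.50 to 0.98, a description of arrays that share treatments. CDCA2 (r = 0.95), CDCA5 (0.94) and CCNB1 (0.94) followed the median of the other members most closely, and GTSE1 (0.38), SGO2 (0.39) and INCENP (0.39) least.

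Genes outside the 50 that work with them were read from lists chosen with earlier results of these data known, and so are no independent evidence of direction. Of 12 mitotic kinases and checkpoint genes, 2 fell with MS275, 0 with 1 nM rapamycin, 3 with 10 nM rapamycin and 4 in each combination. Of all genes 0.455%, 0.0809% and 0.369% fell with the single drugs in that order. In the 1 nM and 10 nM combinations 1.58% and 2.24% did. With 1 nM rapamycin 4 of the 12 were lower at an unadjusted p under 0.05 by limma, where 5.1% of all genes were. Aurora B (AURKB), the kinase of the passenger complex, changed by -0.69, -1.26, -1.63, -1.59 and -2.32 in the order MS275, 1 nM and 10 nM rapamycin, 1 nM and 10 nM combination, and passed in the last 3 (adjusted p = 0.0130, 0.00226 and 0.000345). Aurora A (AURKA), the spindle pole kinase, changed by -1.17, -1.31, -1.81, -1.89 and -2.12 and missed the threshold only at 1 nM rapamycin (0.0825). Of 12 genes of the DREAM and MuvB complexes with B-MYB and FOXM1, the factors known to act on CHR promoters, MYBL2 fell in all 5 treatments, with changes of -1.29, -1.65, -2.06, -2.64 and -3.11. FOXM1 fell with 10 nM rapamycin and in both combinations, by 1.54, 2.28 and 2.77. The other 10 did not pass.

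Of 19 measured genes of the inner kinetochore and MIS12 complex, 1, 0, 2, 2 and 3 fell in the same order by limma. Of all genes 0.455%, 0.0809%, 0.369%, 1.58% and 2.24% fell, shares that also stand beside the next lists. At 1 nM rapamycin 3 of the 19 were lower at an unadjusted p under 0.05 by limma, where 5.1% of all genes were. HJURP, the chaperone that deposits CENP-A, changed by -1.47, -1.11, -1.53, -1.93 and -2.58 and passed in all but 1 nM rapamycin. Of 6 other mitotic kinesins, 1 fell with 10 nM rapamycin and 3 in each combination; KIF22, a chromosome arm motor, fell by 1.64 and 2.30 in the 1 nM and 10 nM combinations. NCAPD3, a condensin II subunit, was the 1 of 3 other condensin genes that fell, by 1.45 and 1.49 in the combinations. The centrosome list had 1 of 17 past the threshold in the 1 nM combination and 2 in that with 10 nM, with CEP152, which recruits PLK4, falling by 1.49 and 2.12.

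In several neighbouring groups few genes passed. Of all genes, 2.24% fell and 1.06% rose in the 10 nM combination. With lists of this size, 0 or 1 gene passing cannot be told apart from those shares. Of 15 measured subunits of the anaphase-promoting complex with FZR1 and its enzymes, only UBE2S passed, in the 10 nM combination (-1.20, adjusted p = 0.0412), and the median of the list was -0.30 there. Of 12 cohesin genes and of 14 measured RhoA, septin and abscission genes, 0 passed in any of the 5 comparisons by limma. In the 10 nM combination their medians were 0.19 and -0.28. At an unadjusted p under 0.05 by limma there, 1 cohesin gene was lower, and 2 genes of the other list were lower and 1 higher. Of all genes 8.42% were lower and 5.76% higher at that p. Among 24 transport kinesins and dynein genes, which carry cargo in non-dividing cells too, 1 fell (DYNC1H1) and 1 rose (KIF3A) in the 10 nM combination, both named after their values were seen, and the median was 0.29. At an unadjusted p under 0.05 by limma, 7 were higher and 1 lower with MS275 (median 0.41), where 5.86% and 4.91% of all genes were. In the 1 nM combination 5 were higher and 1 lower (median 0.20), where 5.95% and 6.67% of all genes were. Of 6 genes of the Ran pathway only RCC1, which loads Ran with GTP at chromatin, fell, by 1.60 in the 10 nM combination (adjusted p = 0.0246).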

How the data were processed

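Gene expression in L363 cells was measured on 17 Affymetrix arrays from total RNA in 6 groups. The deposited values are log2 signals per probe set, made by the authors with the RMA method of the affy package, per the submitters' processing notes (no version is given there). RMA corrects background, makes the arrays' distributions equal and summarises probes; the spread between arrays named in the report is in the values as deposited. Of 54613 probe sets, 41091 had 1 gene symbol, 1801 several and 11721 none in the platform annotation, and the first gave 19775 genes. Each gene was read from its brightest probe set by the mean of the 17 arrays. Arrays have no read depth, and their number limits the precision: over all genes the 95% interval reached to either side by a median of 0.54 for groups of 3 and 0.60 for the 10 nM combination against control.

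limma 3.58.1 in R 4.3.3 (lmFit and eBayes, all 17 arrays, 6 groups, no block) tested 13 contrasts over all genes, adjusted by Benjamini-Hochberg, with a threshold of 0.05. The script was tested on simulated data. The numbers of shared replicates come from the sample titles: deviations of same-numbered arrays correlated with every r over 0.1 (0.29 to 0.85) in 7 of 10 pairs of groups with 3 numbers, not between 10 nM rapamycin and control, MS275 or the 1 nM combination, nor between the 10 nM combination and any group (2 shared numbers). Genes given on every array were, in each role group, the pair with the smallest p of limma's F over the 5 contrasts with control, and likewise for other lists. The members, lists and alternatives were chosen with earlier results of these data known. Promoters are the first window listed for each gene of 35116 RefSeq windows (7811 further ones were not used).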

Additional observations from a re-analysis of the deposited data

How the results depend on the processing

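No member rose past the threshold in any of 338 counts over 13 comparisons and 26 settings. The counts of members that fell moved readily, and the cause was not tested except where fewer arrays entered by construction. They are given in the order MS275, 1 nM rapamycin, 10 nM rapamycin, 1 nM combination and 10 nM combination against control (3, 2, 14, 19 and 23 as reported), then 1 nM and 10 nM combination against MS275 (0 and 6), 1 nM combination against 1 nM rapamycin (3) and 10 nM combination against 10 nM rapamycin (1). With the replicate number as a block they were 7, 8, 23, 30, 27, 2, 9, 5 and 2, and the block ended no call. Without the 2 narrow arrays they were 10, 5, 22, 24, 33, 0, 12, 1 and 2. With array weights they were 15, 37, 38, 29, 35, 0, 2, 1 and 2. With only the compared groups in each fit all 9 were 0. With the mean over all probe sets of a gene they were 4, 4, 13, 21, 22, 0, 4, 2 and 1, with dim genes left out 3, 2, 14, 20, 24, 0, 6, 2 and 1, and with quantile normalization 5, 5, 15, 22, 22, 1, 6, 2 and 1. With a trended robust variance prior they were 2, 1, 7, 18, 22, 0, 1, 1 and 0. Leaving out single arrays gave 1 to 5, 0 to 4, 1 to 16, 14 to 29, 12 to 26, 0 to 1, 0 to 10, 0 to 5 and 0 to 2. For probe set means, dim genes left out, quantile normalization, the trended prior and single left-out arrays, the share of all genes that fell is not given. That share can move with the setting: with 1 nM rapamycin it was 0.0809% as reported and 9.52% with array weights. These counts therefore do not separate a change in the members from one in all genes. The 12 genes given on every array were picked by limma's F over the same 5 contrasts with control, so their stability does not stand for the other members. Of their 38 falls against control, 19 passed whichever array was left out: MKI67, CDCA3, CDCA5, NCAPH, CENPM, SPC24, KIF2C and PRC1 in both combinations, CDCA8 in the 1 nM combination, and MKI67 with MS275 and with 10 nM rapamycin. Both comparisons of rapamycin doses and both interactions gave 0 under every setting. No named gene's called change reversed.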

Other observations

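The arrays of the 10 nM combination correlated best, over all probe sets, with arrays of the 1 nM combination that carry another replicate number: replicate 1 with replicate 2 (r = 0.994) and replicate 2 with replicate 3 (r = 0.993). By comparison, each array of 10 nM rapamycin correlated best with the array of 1 nM rapamycin of its own number (r = 0.996, 0.997 and 0.989).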
